A study of Mus musculus with 48 samples.

Results

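The adrenergic receptor genes Adra1a, Adra1b, Adra1d, Adra2a, Adra2c and Adrb1 and the noradrenaline transporter gene Slc6a2 were followed in amygdala RNA of female mice. These 7 genes, chosen by symbol, were among the 52636 genes of the expression table. Punches of the right amygdala came from wild-type mice (WT) or from mice heterozygous for a targeted deletion of Brd1 (Brd1+/-), strain C57BL/6NTac-Brd1tm1.2Arte/AborgMmucd in the study's methods and C57BL/6NTac-Brd1 in the labels, aged 8 to 11 weeks per the series text. Each genotype had received vehicle (saline), imipramine (IMN) at 10 mg/kg or, in the remaining groups, fluoxetine (FLX) at 5 mg/kg, with 8 libraries in each of the 6 groups and 48 in all. All mice, vehicle groups included, had been injected on 2 days and put through the tail suspension, open field and forced swim tests before the brain was taken, so no group was untested. Per the study's methods the deletion removed exons flanked by loxP sites and controls were litter-matched. Each level is in TPM, which divides a gene's reads by its length and scales them to a fixed total for the library, and from which the number of reads cannot be recovered.

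Noradrenaline reaches the amygdala in axons of brainstem neurons, whose cell bodies lie far from the punch. Released noradrenaline acts on alpha-1 receptors (Adra1a, Adra1b, Adra1d), which couple to Gq and phospholipase C, on alpha-2 receptors (Adra2a, Adra2c), which couple to Gi and also act as brakes on release, and on beta receptors (Adrb1 among them), which couple to Gs and adenylyl cyclase. The transporter encoded by Slc6a2 returns noradrenaline to the axon and is a classical target of imipramine, whereas fluoxetine chiefly blocks the serotonin transporter. In this tissue the family is known for its part in arousal and in memory of aversive events.

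Promoters are shown for the alpha-2 receptor genes, because they moved in opposite directions across the libraries, as described further on. The windows run from 250 bases before to 50 bases after the RefSeq start on GRCm38.p6, and capitals mark GC boxes (GGGCGG or CCGCCC) and short cAMP response elements (TGACG or CGTCA). The Adra2a window lies at chr19:54045009-54045308 on the plus strand and the Adra2c window at chr5:35278316-35278615 on the plus strand. In the GENCODE annotation, which places these genes' starts further upstream than RefSeq, the Adra2a window lies inside the gene and the Adra2c window does so for all but its first 3 bases.
Adra2a: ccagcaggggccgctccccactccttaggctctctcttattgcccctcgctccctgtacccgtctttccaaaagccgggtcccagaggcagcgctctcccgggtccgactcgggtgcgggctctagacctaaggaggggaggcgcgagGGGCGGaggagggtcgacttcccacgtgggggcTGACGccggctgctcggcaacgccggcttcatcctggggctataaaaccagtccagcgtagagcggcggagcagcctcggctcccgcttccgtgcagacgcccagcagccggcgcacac
Adra2c: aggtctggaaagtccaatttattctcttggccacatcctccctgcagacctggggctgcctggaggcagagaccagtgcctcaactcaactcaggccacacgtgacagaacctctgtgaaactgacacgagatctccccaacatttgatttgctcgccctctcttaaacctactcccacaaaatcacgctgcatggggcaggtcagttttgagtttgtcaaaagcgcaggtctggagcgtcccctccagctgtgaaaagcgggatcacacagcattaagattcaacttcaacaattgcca
The Adra2a window held 1 GC box, 1 short cAMP response element and 1 TATA box (TATAAA or TTTATA) at 68.7% G and C. The Adra2c window held none of these motifs at 51.3% G and C, against a median of 52.7% over all windows. Over 32851 promoter windows of the same length, both strands searched, 35.7% held a GC box, 20.8% the short element and 13.6% a TATA box. RefSeq windows were matched for 4 of the 7 genes. The match of letters is a description of the window only.

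The 6 receptor genes were detected in every library, and the transporter in few. Averaged over the 48 libraries, Adra2c stood at 20.4 ± 13.5 TPM (SD, n = 48), Adra2a at 15.9 ± 9.78 TPM, Adrb1 at 11.7 ± 3.56 TPM, Adra1a at 8.26 ± 3.79 TPM, Adra1d at 6.24 ± 7.66 TPM and Adra1b at 5.18 ± 2.75 TPM. Each neighbour in this order differed from the next by less than 1 SD, and the order often turned within a library: Adra2c exceeded Adra2a in only 18 of 48 libraries although its mean was higher. Slc6a2 was listed at 0 in 37 of 48 libraries and at 0.236 TPM or less in the other 11, and each receptor gene exceeded it in all 48. Adrb3 and Adra2b, further receptors of the family, were low, with means of 1.15 TPM and 0.844 TPM.

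The low transporter mRNA stood beside little mRNA of another gene that defines noradrenergic cells. Dbh, the enzyme that makes noradrenaline from dopamine, was listed above 0 in 5 of 48 libraries and reached 0.219 TPM. Th, which makes the dopamine precursor and is shared with dopamine neurons, ranged from 0 to 101 TPM, and the vesicular transporter Slc18a2 from 2.08 to 53.9 TPM. The monoamine oxidases, which degrade noradrenaline, had means of 22.0 TPM for Maoa and 25.7 TPM for Maob. Slc6a2 was therefore described by library and not tested across all genes, since it did not pass the filter of 0.1 TPM in at least 8 libraries.

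By group, the alpha-1 genes lay below the alpha-2 genes in the mean of each group (± SD, n = 8 each). Adra1a averaged 8.83 ± 4.93, 8.90 ± 4.62 and 9.58 ± 1.83 TPM in WT mice given vehicle, IMN and FLX, and 6.69 ± 3.50, 8.56 ± 4.20 and 7.03 ± 3.20 TPM in the same order in Brd1+/- mice. Adra1b averaged 4.68 ± 3.38, 8.34 ± 3.13 and 6.21 ± 0.894 TPM in WT mice given vehicle, IMN and FLX, and 4.54 ± 2.07, 3.36 ± 1.68 and 3.96 ± 1.69 TPM in the same order in Brd1+/- mice. Adra1d averaged 11.8 ± 15.3, 4.19 ± 2.99 and 3.68 ± 3.88 TPM in WT mice given vehicle, IMN and FLX, and 7.26 ± 6.39, 4.20 ± 2.02 and 6.27 ± 6.14 TPM in the same order in Brd1+/- mice. Among these, Adra1b had the lowest SD relative to its mean in WT FLX mice, and Adra1d an SD above its mean in WT vehicle and WT FLX mice. Of the alpha-2 genes, Adra2a averaged 15.4 ± 9.57, 16.5 ± 7.57 and 18.2 ± 5.84 TPM in WT mice given vehicle, IMN and FLX, and 12.3 ± 7.18, 18.9 ± 15.2 and 14.0 ± 11.9 TPM in the same order in Brd1+/- mice. Adra2c averaged 22.4 ± 13.5, 20.0 ± 15.5 and 13.3 ± 6.03 TPM in WT mice given vehicle, IMN and FLX, and 19.6 ± 14.9, 24.2 ± 16.3 and 22.7 ± 13.5 TPM in the same order in Brd1+/- mice. The beta receptor gene Adrb1 averaged 14.6 ± 3.53, 10.8 ± 4.07 and 9.91 ± 3.53 TPM in WT mice given vehicle, IMN and FLX, and 10.8 ± 2.88, 12.2 ± 2.17 and 11.97 ± 3.92 TPM in the same order in Brd1+/- mice. For each gene the range of every group overlapped that of every other group it was compared with.

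**Figure D1:**
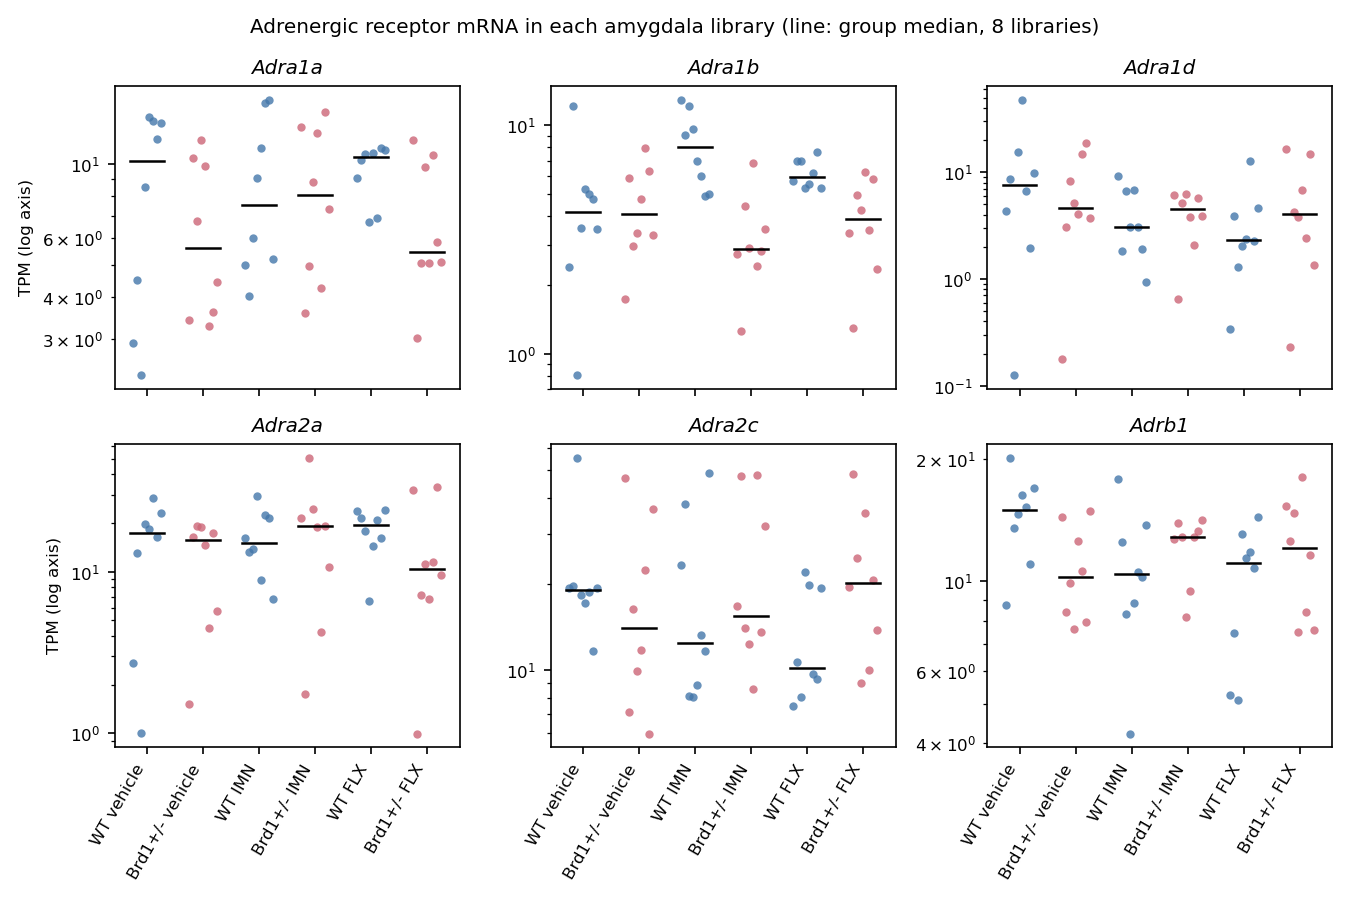
Level of each receptor gene in TPM (log axis) in the 48 libraries by genotype and treatment, 1 point per library (WT blue, Brd1+/- red), with a line at the group median. In Adra1b the Brd1+/- IMN libraries sit low, with a median of 2.86 TPM, against 8.01 TPM in WT IMN, while Adra1d and Adra2a spread over more than 10-fold within several groups.

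The libraries differed in the tissue that the punches held. The summed level of 8 striatal projection neuron markers (Drd1, Drd2, Adora2a, Ppp1r1b, Rgs9, Pde10a and Rasd2 among them) ran from 155.02 to 8971 TPM, that of 5 glutamatergic markers of cortex and basolateral amygdala from 2.39 to 1570 TPM, that of 6 central amygdala markers from 308 to 1931 TPM and that of 7 oligodendrocyte markers from 578 to 16153 TPM. The highest sum of the striatal list was 2034 TPM in the WT FLX group and from 6370 to 8971 TPM in the other groups. Brd1 itself, the deleted gene, had group means of 32.9 to 36.9 TPM in WT and 23.4 to 26.0 TPM in Brd1+/- mice and was 0.54 lower on the log2 scale in Brd1+/- mice over all treatments (limma, adjusted p = 8.9e-07). In bulk tissue, fewer cells of a type and less RNA per cell cannot be told apart.

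The question of the comparison between genotypes was whether receptor mRNA depends on Brd1 dose, without drug and under each drug. None of the receptor genes was called in any of the 14 comparisons made (limma, Benjamini-Hochberg adjusted p over all genes tested), and the lowest adjusted p was 0.143. Of the 84 tests of a receptor gene, 11 had an unadjusted p under 0.05, and most of these concerned Adra1b and Adrb1. Over all genes the share at this threshold ran from 2.99% to 16.8%, depending on the comparison. The comparisons share libraries, so the 84 tests are not independent.

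Adra1b showed the largest genotype difference, and it lay in the mice given IMN. Its level in Brd1+/- IMN mice had a lowest value of 1.25, a median of 2.86 and a highest of 6.86 TPM, and in WT IMN mice 4.89, 8.01 and 12.9 TPM. The groups overlapped through 1 library only: 7 of the 8 Brd1+/- libraries lay below the lowest WT library. The means were 3.36 ± 1.68 and 8.34 ± 3.13 TPM (SD, n = 8 each). The log2 difference was -1.33 with a standard error of 0.30, with an exact permutation p of 0.00109 and a limma p of 0.000335. Adjusted over 23581 genes this p became 0.526, and in this comparison 0 of 6 receptor genes and 4 genes in all (0.017%) were called. An unadjusted p under 0.05 was found for 1 of 6 receptor genes and for 3.58% of all genes.

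The Adra1b difference under IMN kept its direction in every setting tried, from -1.46 to -1.11 on the log2 scale, and from -1.50 to -1.16 when any 1 library was left out. Mean marker scores (mean log2(TPM + 0.1) over the list) were 5.76 in Brd1+/- and 6.00 in WT for the striatal list, 2.87 and 3.06 for the glutamatergic list, 4.89 and 5.09 for the central amygdala list and 7.61 and 8.07 for the oligodendrocyte list. The choroid plexus score stood further apart, at 2.08 in Brd1+/- and 0.0566 in WT. With striatal, oligodendrocyte and choroid plexus scores as covariates the difference was -1.46, and with glutamatergic and central amygdala scores -1.24. It differed with the sample code numbers that the labels carry. In the lower code range Adra1b ranged from 2.41 to 6.86 TPM in 6 Brd1+/- libraries and from 4.89 to 7.00 TPM in 4 WT libraries, a difference of -0.64. In the higher code range it was 1.25 and 2.73 TPM in 2 Brd1+/- libraries and 9.03 to 12.9 TPM in 4 WT libraries, a difference of -2.48. What the codes stand for is not given, and their part in the result was not tested beyond a fit with a term for the code range, in which the difference was -1.301.

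Adra1b was also nominally lower in Brd1+/- mice under FLX. In Brd1+/- FLX mice Adra1b ran from 1.29 over a median of 3.87 to 6.22 TPM, and in WT FLX mice from 5.29 over 5.95 to 7.66 TPM. Here 6 of 8 Brd1+/- libraries lay below the lowest WT library, and the WT libraries were close together. The log2 difference was -0.76 ± 0.26 (exact permutation p = 0.00482, limma p = 0.00929, adjusted p = 0.143). Leaving out any 1 library gave values from -0.87 to -0.56, the latter without the Brd1+/- library of 1.29 TPM. That library ranked 2 among the 48 in striatal score. With striatal, oligodendrocyte and choroid plexus scores as covariates the difference was -0.64, and with glutamatergic and central amygdala scores -0.74. Within the lower and the higher code range the difference was -0.59 and -1.09, the latter with the library of 1.29 TPM included. In vehicle mice the groups overlapped widely, from 1.73 to 7.97 TPM in Brd1+/- and from 0.803 to 12.2 TPM in WT mice, with medians of 4.08 and 4.15 TPM and a log2 difference of 0.13 ± 0.43. There the direction turned with the code range, with a difference of 1.16 in the lower and -0.48 in the higher range. The genotype-by-FLX interaction of Adra1b was -0.89 ± 0.51 (adjusted p = 0.389). Averaged over the treatments, Adra1b was lower in Brd1+/- mice by a log2 difference of -0.65 ± 0.21 (adjusted p = 0.340). In that comparison 0 of 6 receptor genes were called against 0.0215% of all genes, and 1 of 6 had an unadjusted p under 0.05 against 8.55% of all genes.

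Under FLX another alpha-1 receptor gene, Adra1a, was also nominally lower in Brd1+/- mice. It ran from 3.02 over a median of 5.47 to 11.8 TPM in Brd1+/- and from 6.69 over 10.5 to 11.2 TPM in WT mice. The ranges overlapped, with 5 Brd1+/- libraries below the lowest WT library and 1 above the highest. The log2 difference of -0.55 ± 0.25 (exact permutation p = 0.0480, adjusted p = 0.277) shrank to -0.27 with striatal, oligodendrocyte and choroid plexus scores as covariates and to -0.28 with glutamatergic and central amygdala scores. In this comparison 0 of 6 receptor genes were called against 1.54% of all genes. Those with an unadjusted p under 0.05 were 2 of 6, Adra1a and Adra1b, against 16.6% of all genes.

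The third alpha-1 gene, Adra1d, had no genotype difference that exceeded its spread. Its values ran from 0.125 over 7.59 to 47.8 TPM in WT vehicle and from 0.178 over 4.59 to 18.7 TPM in Brd1+/- vehicle mice, so that the highest and lowest libraries differed 381.9-fold and 106-fold. The genotype differences were -0.29 ± 0.96 in vehicle, 0.10 ± 0.50 in IMN and 0.54 ± 0.76 in FLX mice on the log2 scale, each smaller than its SE. The gene overlaps the antisense gene Gm14285, and whether reads were counted by strand is not stated, so its level is uncertain.

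The alpha-2 receptor genes did not differ between genotypes beyond their spread either. Adra2a ran from 1.00 over 17.3 to 28.7 TPM in WT vehicle and from 1.50 over 15.6 to 19.2 TPM in Brd1+/- vehicle mice, with a log2 difference of -0.16 ± 0.69. Under FLX it was -0.83 ± 0.54 and under IMN -0.20 ± 0.55. Adra2c ran from 11.6 over 19.0 to 55.2 TPM in WT vehicle and from 5.98 over 14.0 to 46.9 TPM in Brd1+/- vehicle mice, with differences of -0.39 ± 0.41 in vehicle, 0.34 ± 0.45 in IMN and 0.68 ± 0.35 in FLX mice. Each of these 6 differences was less than 2 times its SE, which does not show that the levels were alike.

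Adrb1 was the receptor gene with a nominal genotype difference in vehicle mice. It ran from 7.63 over a median of 10.3 to 14.9 TPM in Brd1+/- and from 8.73 over 15.0 to 20.1 TPM in WT mice. The groups overlapped, with 3 Brd1+/- libraries below the lowest WT and 4 WT libraries above the highest Brd1+/- library. The log2 difference was -0.43 ± 0.18 (exact permutation p = 0.0401, adjusted p = 0.513). Oligodendrocyte markers went the other way, with a mean score of 8.65 in Brd1+/- and 7.14 in WT vehicle mice. The choroid plexus score was also higher in Brd1+/- mice, at 2.41 against 1.16. With striatal, oligodendrocyte and choroid plexus scores as covariates the Adrb1 difference was -0.04, and with glutamatergic and central amygdala scores -0.27. The part of any single list was not tested. Without covariates, leaving out any 1 library gave values from -0.53 to -0.36, with a limma p of up to 0.0680. In this comparison 0 of 6 receptor genes were called against 0.708% of all genes, and 1 of 6 had an unadjusted p under 0.05 against 8.52% of all genes.

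**Figure D2:**
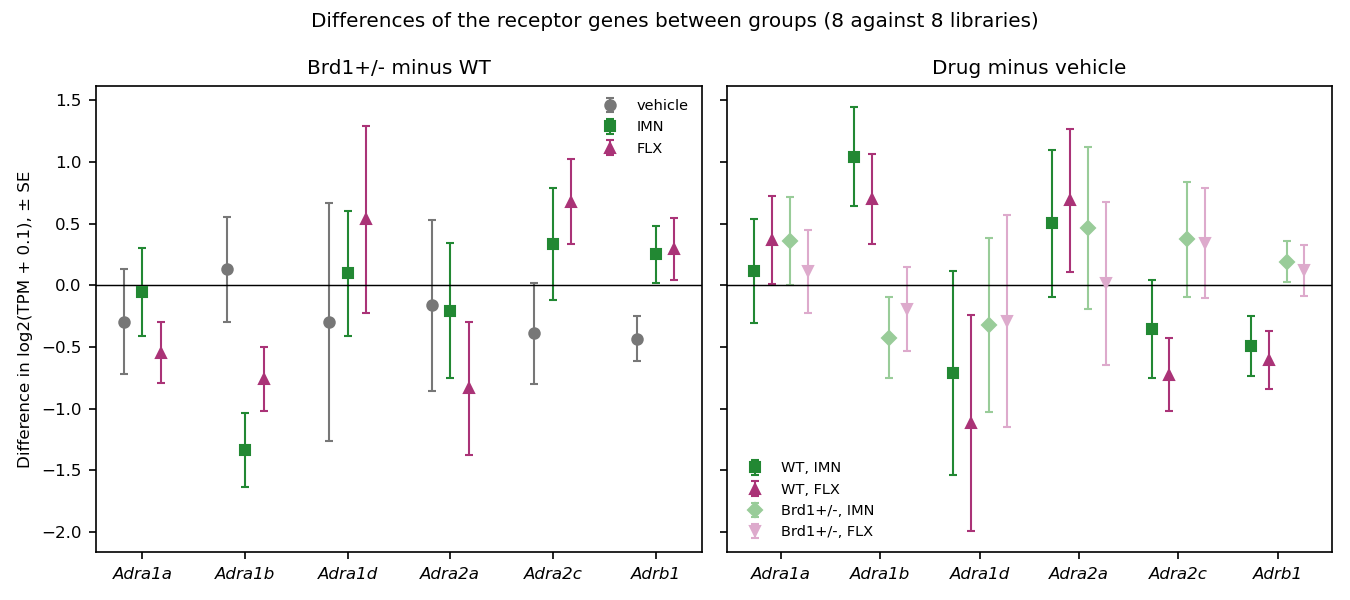
Difference in log2(TPM + 0.1) of each receptor gene between groups of 8 libraries, with the standard error of the limma fit as bars. The left panel shows Brd1+/- minus WT under vehicle, IMN and FLX, the right panel drug minus vehicle in each genotype. Adra1b under IMN, at -1.33 ± 0.30, is the point farthest from 0 in units of its error.

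The drugs were compared with vehicle to ask whether antidepressant treatment moves these genes. Imipramine was of particular interest, since the noradrenaline transporter is a classical target of that drug, though not named here as its only one. All vehicle mice carry lower sample codes than all drug mice, so whatever the codes stand for and the drug cannot be told apart. The comparisons of both drugs share the vehicle libraries of their genotype.

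In WT mice Adra1b was nominally higher under IMN. Vehicle libraries ran from 0.803 over 4.15 to 12.2 TPM and IMN libraries from 4.89 over 8.01 to 12.9 TPM. The ranges overlapped, but the highest vehicle value stood alone, the next being 5.24 TPM. The log2 difference was 1.04 ± 0.40 (exact permutation p = 0.0218, limma p = 0.0188, adjusted p = 0.970). Without the vehicle library of 12.2 TPM it was 1.28, and without the one of 0.803 TPM it was 0.74. In Brd1+/- mice the corresponding difference was -0.42 ± 0.33, from 1.73 to 7.97 TPM in vehicle and from 1.25 to 6.86 TPM in IMN libraries. The genotype-by-IMN interaction of Adra1b was -1.47 ± 0.53 (adjusted p = 0.368).

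No receptor gene was called for IMN in either genotype. For WT mice the count was 0 of 6 against 0% of all genes, with 1 of 6 at an unadjusted p under 0.05 against 4.58% of all genes. For Brd1+/- mice it was 0 of 6 against 0.776% of all genes, with 0 of 6 at an unadjusted p under 0.05 against 9.3%. Averaged over the genotypes it was 0 of 6 against 0.0525%, with 0 of 6 at an unadjusted p under 0.05 against 6.36%. For the genotype-by-IMN interaction it was 0 of 6 against 0.536%, and 2 of 6, Adra1b and Adrb1, had an unadjusted p under 0.05 against 9.24% of all genes. The Adrb1 interaction was 0.68 ± 0.30 (limma, adjusted p = 0.495). With striatal, oligodendrocyte and choroid plexus scores as covariates this value was 0.21, and with glutamatergic and central amygdala scores 0.52.

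The transporter gene itself gave no difference under IMN. Slc6a2 was listed at 0 in 7 of 8 WT IMN libraries and at 0.108 TPM in the other one, and at 0 in 7 of 8 Brd1+/- IMN libraries and at 0.0659 TPM in the other one. In the vehicle groups it was above 0 in 2 of 8 libraries of each genotype. The exact permutation p was 1.00 for WT IMN against vehicle and 0.733 for Brd1+/- IMN against vehicle, and a difference was not detectable at these levels. Under FLX it was above 0 in 1 of 8 WT and 4 of 8 Brd1+/- libraries (exact permutation p = 0.785 between genotypes).

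Under FLX, nominal differences from vehicle were found in WT mice for Adrb1 and Adra2c. Adrb1 ran from 5.10 over 11.1 to 14.4 TPM under FLX and from 8.73 over 15.0 to 20.1 TPM under vehicle, a log2 difference of -0.60 ± 0.23 (exact permutation p = 0.0272, adjusted p = 0.202). Adra2c ran from 7.47 over 10.1 to 22.1 TPM under FLX and from 11.6 over 19.0 to 55.2 TPM under vehicle, with 5 FLX libraries below the lowest vehicle library, a difference of -0.72 ± 0.30 (exact permutation p = 0.0382, adjusted p = 0.226). With striatal, oligodendrocyte and choroid plexus scores as covariates the Adra2c difference was -0.09 and the Adrb1 difference -0.37, and with glutamatergic and central amygdala scores -0.58 and -0.38. Without the vehicle library of 55.2 TPM the Adra2c difference was -0.52. The summed striatal markers had a median of 352 TPM and a highest value of 2034 TPM in WT FLX libraries, and of 440.4 and 8971 TPM in WT vehicle libraries. Mean scores in WT FLX and WT vehicle mice were 8.35 and 7.14 for oligodendrocytes, 2.45 and 0.237 for diencephalic, 2.11 and 3.64 for glutamatergic and 5.72 and 4.41 for central amygdala neurons, and apart from the covariate fits their part in the differences was not tested.

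No receptor gene was called for FLX either. In WT mice 0 of 6 were called against 0.335% of all genes, and the 2 with an unadjusted p under 0.05 stand beside 16.8% of all genes. In Brd1+/- mice 0 of 6 were called against 0.731%, with 0 of 6 at an unadjusted p under 0.05 against 6.94%. Over both genotypes 0 of 6 were called against 0.173%, with 0 at an unadjusted p under 0.05 against 6.89%. For the genotype-by-FLX interaction 0 of 6 were called against 1.71%, and 1 of 6, Adrb1 at 0.72 ± 0.32 (adjusted p = 0.240), had an unadjusted p under 0.05 against 16.8% of all genes. FLX against IMN gave 0 of 6 against 0% of all genes in both genotypes, with 0 of 6 at an unadjusted p under 0.05 against 4.78% in WT and 2.99% in Brd1+/- mice.

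The genes of receptor signalling were counted next. A list of 63 genes covered noradrenaline synthesis, degradation and uptake, the G proteins and effectors behind each receptor class, and receptor regulators, and 58 or 59 of them were tested in each comparison. In Brd1+/- FLX against WT FLX mice 0 were called higher and 2 lower of 58 tested, against 1.54% of all genes called, with a median log2 difference of -0.07 over the list and -0.06 over all genes. An unadjusted p under 0.05 was found for 14 of the 58, against 16.6% of all genes. In each of the other comparisons 0 were called. The lower ones were Plcb4, a phospholipase C of the alpha-1 pathway, at 25.8 ± 9.86 against 53.6 ± 16.9 TPM (log2 difference -1.10, adjusted p = 0.0322), and Prkaca, the catalytic subunit of protein kinase A, at 164.0 ± 29.3 against 226.7 ± 29.7 TPM (log2 difference -0.48, adjusted p = 0.0442). In the same comparison the diencephalic marker Lhx5 and the astrocyte marker Fgfr3 were also called lower, and diencephalic markers summed to at most 35.2 TPM in Brd1+/- FLX and up to 208 TPM in WT FLX libraries. Their part in the values of Plcb4 and Prkaca was not tested.

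The receptor genes varied more between mice of a group than most genes did. The SD of log2 values within groups was 1.66 for Adra1d, 1.297 for Adra2a, 0.87 for Adra2c, 0.75 for Adra1a, 0.70 for Adra1b and 0.47 for Adrb1, against a median of 0.377 over 19222 genes with a mean of at least 1 TPM. For Adra1d, 94.3% of those genes had a smaller SD, for Adra2a 91.0% and for Adrb1 60.7%. The share of variance between the 6 groups was 33.3% for Adra1b and 16.5% for Adrb1, and from 4.76% to 9.33% for the other receptor genes, against a median of 11.1% over all these genes.

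That variation went along with markers of the punched tissue. The alpha-2 genes went opposite ways: Adra2a was low and Adra2c high in libraries with high striatal markers. The striatal score had a gap that set 13 libraries apart from the other 35, so the relation is given on each side of the gap. Adra2c had a median of 38.0 TPM (19.3 to 55.2) in the 13 libraries above the gap and 12.3 TPM (5.98 to 24.7) in the 35 below it, and Adra2a medians of 4.45 (0.993 to 13.2) and 19.0 TPM (7.21 to 50.5). With group means removed, Pearson's r of Adra2c with the score was 0.36 over 35 libraries below the gap and 0.79 over 12 above it, and that of Adra2a -0.57 and -0.96. The 13th library, alone in its group above the gap, drops out once group means are removed. The other 12 came from groups with only 2 or 3 libraries above the gap. Few independent differences therefore stand behind the r values above the gap, and these were not tested.

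The alpha-1 genes were also low in the most striatal libraries. Above the gap r with the striatal score was -0.80 for Adra1a, -0.89 for Adra1b and -0.91 for Adra1d over 12 libraries, and below it 0.10, -0.02 and -0.35 over 35. The values above the gap again rest on groups of 2 or 3 libraries, among them the 4 most striatal ones, and were not tested. The 4 libraries with the highest striatal scores, 1 each in WT vehicle, Brd1+/- vehicle, Brd1+/- IMN and Brd1+/- FLX, held the 4 lowest values of Adra2a (0.993 to 1.75 TPM) and of Adra1b (0.803 to 1.73 TPM). Adrb1 had r of 0.34 with the striatal score below the gap, close to that of Adra2c, and of 0.03 above it. Over all 48 libraries its r with this score was 0.37 and rho 0.43 (permutation within groups, adjusted p = 0.0198 and 0.00687).

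**Figure D3:**
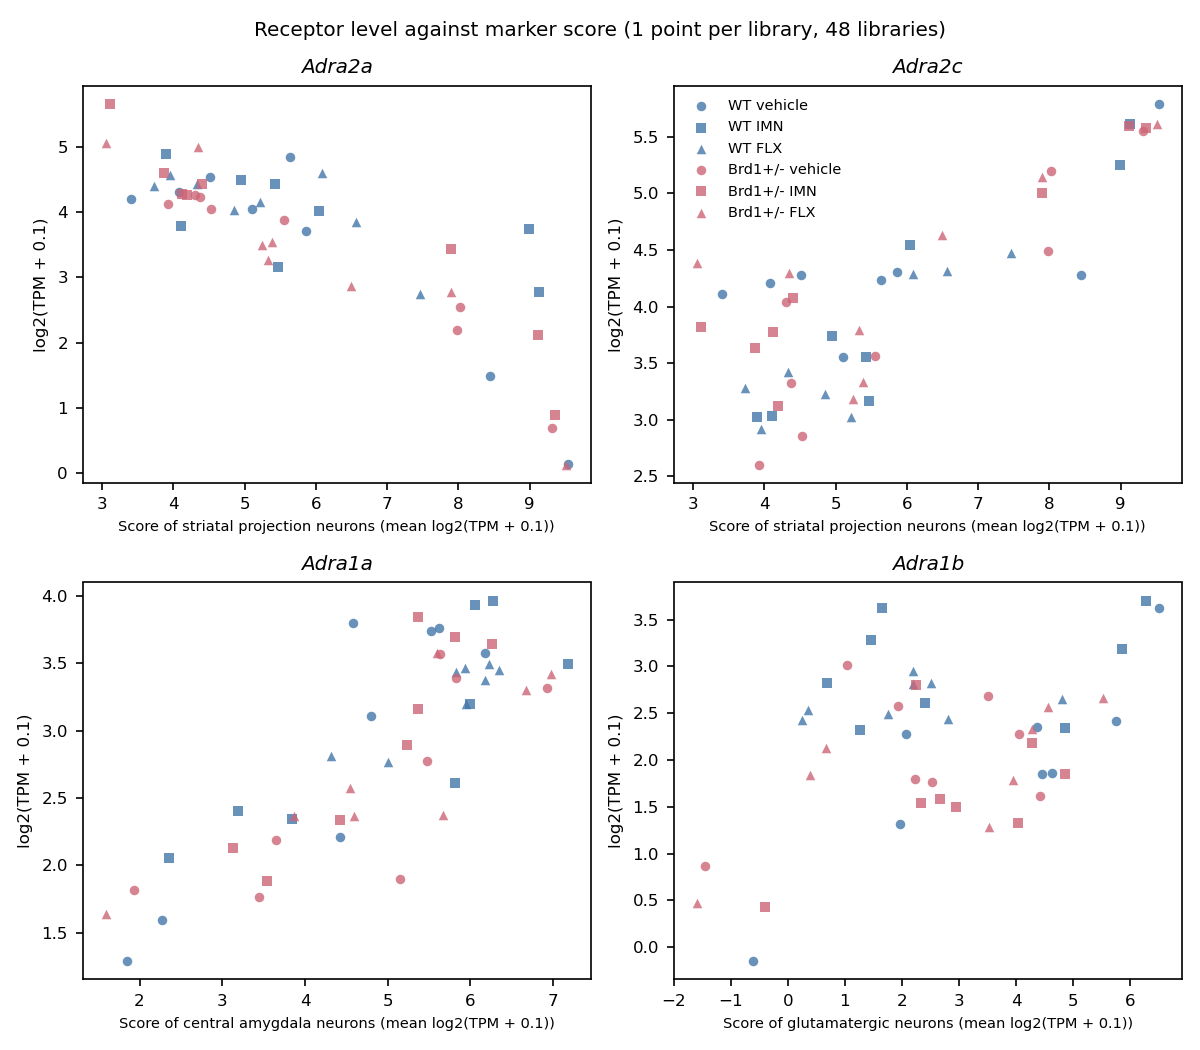
Level of 4 receptor genes in log2(TPM + 0.1) against the score of a marker list (mean log2(TPM + 0.1) of its genes), 1 point per library, with genotype by colour and treatment by symbol. Adra2a falls and Adra2c climbs across the striatal score, and Adra1a climbs with the central amygdala score. Adra1b has its 4 lowest points at the left end of the glutamatergic score. These come from WT vehicle, Brd1+/- vehicle, Brd1+/- IMN and Brd1+/- FLX libraries, and no WT IMN or WT FLX library lies at that end.

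Scores of all 10 marker lists were related to the receptor genes over all 48 libraries with group means removed. These were 60 relations, those with the striatal and choroid plexus lists included. An adjusted p of Pearson's r under 0.05 was found for 31 of them (permutation within groups, Benjamini-Hochberg). For 26 the adjusted p of Spearman's rho was under 0.05 as well. Adra1a had r = 0.84 and Spearman's rho = 0.83 with the central amygdala list (permutation p = 1e-05 for each, the smallest possible, adjusted 5.45e-05 and 8.57e-05), 0.82 without the 2 libraries farthest from the median score, 0.85 in vehicle and 0.84 in drug libraries. Adra2c had r = -0.80 and rho = -0.78 with the diencephalic list (permutation p = 1e-05 for each, adjusted 5.45e-05 and 8.57e-05), -0.79 without the 2 farthest libraries, -0.83 in vehicle and -0.79 in drug libraries. The relation of Adra2c was not particular to diencephalic neurons: its r was also -0.78 with the astrocyte list and -0.78 with the central amygdala list. With the striatal list it was 0.84. The central amygdala score averages Prkcd, Tac2, Crh, Dlk1, Nts and Sst, and the genes of a list were not related to the receptor genes singly.

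Adra1b and Adra1d went with the glutamatergic list of cortex and basolateral amygdala (Slc17a7, Neurod6, Rspo2 and Tbr1 among its members). For Adra1b r was 0.57 and rho 0.44 (permutation p = 0.00015 and 0.00441, adjusted 0.0006 and 0.0115), 0.47 without the 2 farthest libraries, 0.69 in vehicle and 0.50 in drug libraries. For Adra1d r was 0.64 and rho 0.51 (permutation p = 2e-05 and 0.00078, adjusted 9.23e-05 and 0.00275), 0.59 without the 2 farthest libraries, 0.81 in vehicle and 0.52 in drug libraries. The libraries with the 4 highest striatal scores also had the 4 lowest glutamatergic scores, from -1.60 to -0.40. The relations to the striatal and the glutamatergic list therefore share these libraries. Adrb1 was lower where oligodendrocyte markers were higher, with r = -0.60 and rho = -0.58 (permutation p = 1e-05 and 5e-05, adjusted 5.45e-05 and 0.000273), -0.65 without the 2 farthest libraries, -0.63 in vehicle and -0.60 in drug libraries. This was not particular to oligodendrocytes: r of Adrb1 was also -0.60 with the diencephalic, -0.51 with the astrocyte and -0.49 with the noradrenergic list.

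**Figure D4:**
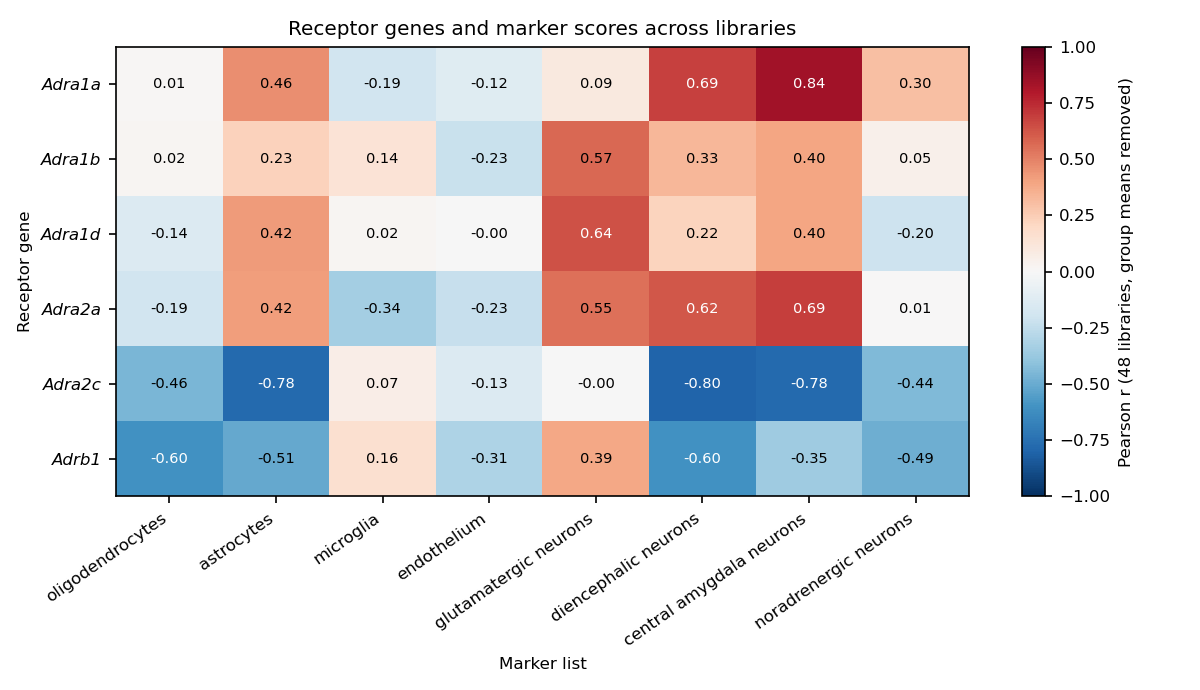
Pearson's r of each receptor gene (rows) with the score of 8 marker lists (columns) over the 48 libraries with group means removed; red is positive and blue negative. The striatal and choroid plexus lists are left out because their scores fall into separate clusters of libraries. Adra1a with central amygdala neurons (0.84) and Adra2c with diencephalic neurons (-0.80) are the strongest of each sign.

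Among the receptor genes themselves, 10 of 15 pairs had an adjusted p of r under 0.05. Adra1a and Adra2a had r = 0.69 and rho = 0.65, Adra1b and Adra1d r = 0.67 and rho = 0.52, and Adra1d and Adra2a r = 0.67 and rho = 0.49, and the adjusted permutation p of these values lay between 3.75e-05 and 0.00205. Adra2a and Adra2c had r = -0.67 and rho = -0.53 (permutation p = 1e-05 and 0.00016, adjusted 3.75e-05 and 0.0008), and -0.60 without the 2 farthest libraries. Adra2c and Adrb1 had r = 0.65 and rho = 0.70 (permutation p = 1e-05 for each, adjusted 3.75e-05 and 7.5e-05), and 0.67 without the 2 farthest libraries. The receptor genes and the marker scores were measured in the same libraries, so the pairs are not independent of the marker relations above.

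The genes most like each receptor gene, by Pearson's r of group-centred log2 values over the 48 libraries among 19172 named genes, were the following. For Adra2a they were Sstr1, a somatostatin receptor gene (r = 0.96), Syt13 (0.94) and Slc7a3 (0.94). For Adra2c they were Car11 (0.95), Ppp3ca, a catalytic subunit of calcineurin (0.95), and Camk4, a calcium-dependent kinase (0.95). For Adra1a they were Pnmal2, Ahi1 and Gaa (0.89 each), and for Adra1b Arhgap44 (0.84), Igf1 (0.82) and Vash1 (0.81). For Adra1d they were Tcf4 (0.83), Sorl1 (0.82) and Shisa4 (0.82), and for Adrb1 Ctxn1, Pcnx2 and Limd2 (0.83 each). The values are highest for the alpha-2 genes.

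In the mouse genome (GRCm38), the receptor genes lie apart from each other except for a pair on chromosome 19. Adra2a (chr19:54044151-54048982) and Adrb1 (chr19:56722199-56733113) are both on the plus strand, and their group-centred levels had r = -0.17 and rho = -0.24 over the 48 libraries (permutation p = 0.218 and 0.0918, adjusted 0.256 and 0.153). Adra1b (chr11:43774606-43901210, minus strand) has 4 annotated transcripts with 2 to 5 exons, and Adra2c (chr5:35278319-35281763, plus strand) is a single-exon gene. Adra1a lies at chr14:66635251-66771168 on the plus strand, Adra1d at chr2:131545850-131562283 on the minus strand and Slc6a2 at chr8:92960079-93001667 on the plus strand.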

How the data were processed

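RNA from the punches was sequenced single-end after TruSeq library preparation. Per the labels and methods, the authors used FastQC and Trimmomatic, aligned to GRCm38 with HISAT2 2.1.0 and quantified with StringTie 1.3.4. The deposited values are TPM, 1 column per library. TPM keeps no depth, so the precision that depth gives is unknown, and a rise in abundant transcripts lowers all other shares. The members and gene lists were chosen with earlier results of these data known.

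Values were transformed to log2(TPM + 0.1), on which folds of low genes are understated. A gene entered a fit if 8 or more of its libraries reached 0.1 TPM, and was tested with limma 3.58.1 (R 4.3.3; eBayes with trend, Benjamini-Hochberg over all genes), in place of the authors' count test, because the table holds no counts; the code was tested on simulated data. Single values were compared by two-sided exact permutation over 12870 arrangements (smallest p 0.000155), and correlations by 100000 permutations within groups. A marker score is the mean log2(TPM + 0.1) of a list. Named genes were the 7 members, pathway genes that were called or that define a step, the 3 genes most alike to each receptor, Brd1 and the markers; some genes of the lists are not reported here. Coordinates came from GENCODE M21, promoter windows from RefSeq. The series text names other brain regions, and the sample labels, which say amygdala, were followed. Alternatives were other pseudocounts, filters, scalings, a fit of all libraries, a replicate block, a sample code term, marker covariates and leaving out each library. Where the labels do not say that libraries came from separate mice, p-values measure the spread between these samples.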

Additional observations from a re-analysis of the deposited data

Results flagged for a closer look

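In 5 of the 36 combinations of receptor gene and group, 1 library lay far from the other 7 (Dixon's ratio above 0.526). Chance gives such a library in about 1 group of 20 where values are normally distributed; the ratio was taken on TPM, not on the log2 scale, all 5 libraries were the highest of their group, and the rate for skewed values was not determined. For Adra1b, WT vehicle replicate 2 stood at 12.2 TPM, with the next at 5.24 TPM. For Adra1d, WT vehicle replicate 5 stood at 47.8 TPM, with the next at 15.3 TPM, and WT FLX replicate 6 at 12.7 TPM, with the next at 4.63 TPM. For Adra2a, Brd1+/- IMN replicate 3 stood at 50.5 TPM, with the next at 24.3 TPM. For Adra2c, WT vehicle replicate 3 stood at 55.2 TPM, with the next at 19.6 TPM, and the same library held the highest striatal marker score of all 48 and the lowest Adra1a, Adra1b and Adra1d.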

How the results depend on the processing

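The count of receptor genes called was 0 in all 14 comparisons, in 159 fits with another setting and in 320 fits without 1 library. The 11 nominal differences kept their sign under every alternative tried. Among the values that moved were those of Adra1a, Adrb1 and Adra2c with striatal, oligodendrocyte and choroid plexus scores as covariates, given beside those results. The glutamatergic and central amygdala covariates were chosen after seeing the data. Replicate numbers did not pair the libraries: in the genotype comparisons the correlation of same-numbered libraries ran from -0.26 to 0.31, and at most 2 of 8 libraries correlated best with their own number. With the replicate number as a block, 0 receptor genes were called, and the Adra1b difference under IMN was -1.33 (adjusted p = 0.972). With 8 libraries a group and the spread of these punches, small changes of Adra1d or Adra2a could not be detected.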

Other observations

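One library stood out for genes of dopamine neurons. In Brd1+/- vehicle replicate 7 the dopamine transporter gene Slc6a3 was listed at 149 TPM, against 4.30 TPM at most in the other libraries, Th at 101 TPM against 35.9 TPM and Slc18a2 at 53.9 TPM against 12.3 TPM. The same library held the lowest Adra2c of all 48, at 5.98 TPM, and the second highest Adra1d, at 18.7 TPM. Its Slc6a2 was listed at 0.

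Adra2b and Adrb3, adrenergic receptor genes outside the set, were low in all groups. Adra2b, the remaining alpha-2 receptor gene, ran from 0 to 4.30 TPM with a median of 0.240 TPM, and Adrb3 from 0 to 3.05 TPM with a median of 1.10 TPM. Neither was called in any comparison, and 0 had an unadjusted limma p under 0.05. Slc22a3, a low-affinity amine transporter gene, ran from 0.153 to 7.11 TPM, with a median of 1.10 TPM.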
